A study of Mus musculus with 9 samples.

Results

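The genes described here are 8 genes of the S100 family (S100a1, S100a4, S100a6, S100a8, S100a9, S100a10, S100a11 and S100a13) and the galectin genes Lgals1 and Lgals3. They were chosen by symbol from the GENCODE M21 annotation and make up 10 of the 28137 genes in the deposited expression table. RNA was taken from RAW264.7 cells, an established mouse leukemia line used as a model of macrophages, in 9 libraries. Each of the 3 groups held 3 libraries and differed in the small interfering RNA (siRNA) that was transfected: a negative control (NC), an siRNA against Sfrp2, a secreted modulator of Wnt signalling, or an siRNA against Rab6a, a small GTPase of Golgi transport. By the labels, all groups received 60 nM siRNA for 6 h, then complete medium for 12 h, and then lipopolysaccharide (LPS, a bacterial cell wall component that activates macrophages) at 100 ng/ml for 24 h. The labels name LPS alone as the stimulus, while the methods of the study also name IFN-γ and give another siRNA dose and timing, and the library titles carry the mark 6H, so the conditions are uncertain. No library without LPS was analysed here. The libraries labelled SFRP2 siRNA are numbered siRNA-1 to siRNA-3, and the study lists 3 different siRNA sequences under those names. It is not stated that each library received its own siRNA, and if so the spread in this group includes that between siRNAs. Nor do the labels say that replicates were separate cultures, so p-values measure only the spread between these libraries, which may be technical. The purpose of the RAB6A siRNA group is not given in the sources used here.

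S100 proteins are small calcium-binding proteins with paired EF-hands that mostly act as dimers. Inside cells they bind annexins and cytoskeletal proteins, and several of them, above all the S100a8 and S100a9 pair known as calprotectin, are released by myeloid cells as danger signals that act on Tlr4 and on the receptor RAGE. Galectins are lectins that bind β-galactosides on glycoproteins. Galectin-1 is known mainly for dampening inflammation, and galectin-3, long used as a macrophage marker under the name Mac-2, also marks damaged lysosomes.

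Expression is given as FPKM, the fragments of a gene scaled to the length of its exons and to the total of the library, so that genes can be compared per length. Whole reads could be recovered from these values for all 10 genes, and the libraries held 32758729 to 47149258 reads. The target of the siRNA could not be checked in the libraries labelled SFRP2 siRNA, since Sfrp2 had 2 to 4 reads in every library of the series. Rab6a was 25.7 ± 1.48 FPKM (SD, n = 3) in NC and 20.7 ± 0.445 in RAB6A siRNA, a log2 fold change of -0.31 (SE 0.06, limma adjusted p = 0.00240) that was 0.02 (adjusted p = 0.79) after the correction for GC content and length described below. The check of this label thus depends on the processing. The macrophage markers Cd68 and Cd14 were abundant throughout, and the LPS response gene Tnf had 1049.7 ± 49.2 FPKM in NC and 659 ± 34.0 in RAB6A siRNA. Of 5 LPS response genes, 2 were higher and 2 lower in RAB6A siRNA at an adjusted p under 0.05. With the correction 3 were higher and 2 lower, and 37.6% and 36.5% of all genes tested were so without it. In RAB6A siRNA, 5 of 9 macrophage markers were lower than in NC and 0 higher at an adjusted p under 0.05 (6 and 2 with the correction, and 36.5% and 37.6% of all genes tested), and Lyz2, which encodes lysozyme, went from 872 to 214 FPKM. Neutrophil markers summed to 0.0590 to 0.478 FPKM over the 8 of 10 that were in the table, with Elane and Mmp8 at 0 in NC and RAB6A siRNA and Prtn3, the highest of them, at 0.220 ± 0.0853 in RAB6A siRNA. Fibroblast markers (5 of 5 in the table) summed to 1.30 to 2.58 FPKM in NC, 1.82 to 2.61 in the libraries labelled SFRP2 siRNA and 2.08 to 3.32 in RAB6A siRNA, and epithelial markers (5 of 5) to 0.382 to 0.880, 0.190 to 0.798 and 1.02 to 1.82. The part of these shifts in the results was not tested, and in bulk RNA fewer cells of a type and less RNA per cell cannot be told apart.

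The members spanned nearly the whole range of expression in NC cells. S100a11, a partner of annexin A1, led with 641 ± 71.3 FPKM and was the gene at rank 46 of the table by mean FPKM. Lgals1 followed with 342 ± 18.0 FPKM. S100a1, best known as a calcium sensor of heart muscle, and S100a10, the light chain of the annexin A2 tetramer, came next with 136 ± 15.9 and 121 ± 2.17 FPKM. These neighbours in the order overlapped between libraries, and they were the only adjacent pair in NC that did. Below them stood Lgals3 at 110 ± 2.92, S100a6 at 69.7 ± 4.86 and S100a13 at 27.3 ± 2.32 FPKM. S100a4, a metastasis-associated protein that binds non-muscle myosin, had 7.75 ± 0.699 FPKM. The calprotectin genes closed the list, with S100a8 at 0.896 ± 0.192 FPKM and S100a9 without a read in NC. S100a11 alone made up 63.8% ± 1.81 of the FPKM of the 8 S100 genes in NC, and the S100 sum was 0.273% ± 0.0198 of all FPKM in a library.

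**Figure D1:**
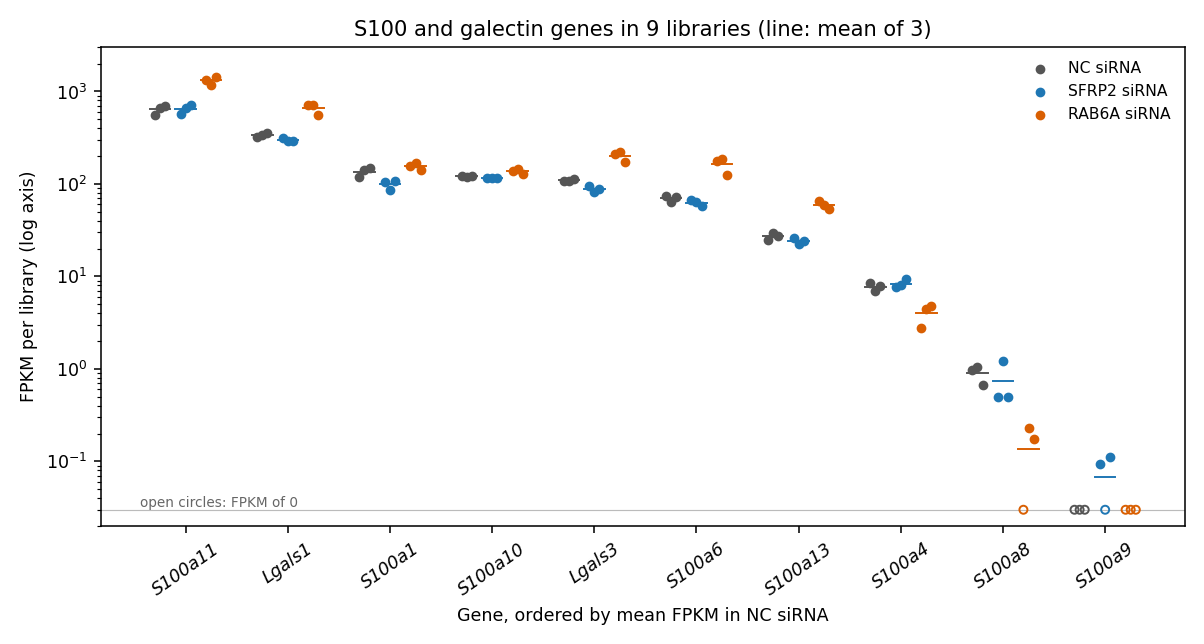
FPKM of each gene in each of the 9 libraries on a log axis, with genes ordered by their mean in NC siRNA, lines at group means (n = 3) and open circles for values of 0. The RAB6A siRNA libraries lie above both other groups for S100a11, Lgals1, Lgals3, S100a6, S100a13 and, by little, S100a10. They lie below them for S100a4 and S100a8, while S100a9 has 0 FPKM in all NC siRNA and RAB6A siRNA libraries.

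The first comparison asked what SFRP2 siRNA did to these genes in LPS-treated cells. No member passed the test. Tests were run with limma on log2(FPKM + 0.1), a scale that understates changes of low genes, over genes with a mean of at least 0.5 FPKM, and a gene was called when its Benjamini-Hochberg adjusted p was under 0.05 and its log2 fold change over 1 in size. Of the 10 members 9 were tested and 0 were called, against 0% of the 12017 genes tested. By limma or by voom on recovered reads, 0 members had an adjusted p under 0.05. The study itself reports differentially expressed genes for SFRP2 siRNA in RAW264.7 cells, using DESeq2 at the same thresholds. Its test was not repeated here. At an unadjusted p under 0.05 there were 3 members, S100a1, Lgals1 and Lgals3, where 18.5% of all genes tested passed. The groups did not overlap for 4 members, all lower in the libraries labelled SFRP2 siRNA, beside 24.7% of all genes without overlap and 13.9% in the lower direction.

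Lgals3 was the member with the smallest p in this comparison. It had 108, 108 and 113 FPKM in NC and 94.9, 81.7 and 88.9 in the libraries labelled SFRP2 siRNA. All values of the latter group were below those of NC, with a log2 fold change of -0.31 (SE 0.06, limma adjusted p = 0.165, voom adjusted p = 0.0534). S100a1 gave 118, 141 and 148 FPKM in NC and 104, 85.4 and 107 in the libraries labelled SFRP2 siRNA. Its groups were also separate, with a log2 fold change of -0.46 (SE 0.11, limma adjusted p = 0.178, voom adjusted p = 0.0633). Lgals1 was 323, 342 and 359 FPKM against 311, 290 and 293, so that its highest library labelled SFRP2 siRNA came close to the lowest NC library (log2 fold change -0.20, SE 0.06, limma adjusted p = 0.185). S100a10 differed by -0.07 (SE 0.04), the smallest of the 4 separated differences. The remaining members overlapped between groups, and S100a11, at 641 ± 71.3 against 651 ± 71.9 FPKM, had a log2 fold change of 0.02 (SE 0.11). A p that misses the threshold with 3 libraries a group does not show that levels were alike, and the exact two-sided permutation test of a single gene cannot go below p = 0.1 here.

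The second comparison set RAB6A siRNA against NC. Most members were higher in RAB6A siRNA: S100a11, S100a6 and S100a13 among the S100 genes and both galectins rose to 1.84 to 2.34 times their NC mean, while S100a4 and S100a8 fell. Of the 9 members tested, 8 had an adjusted p under 0.05, 6 higher and 2 lower. Since 74.1% of all 12712 genes tested had one (37.6% higher, 36.5% lower), this share is near the background. By the fold rule 4 members were called, 3 higher and 1 lower, against 30.1% of all genes (17.3% higher, 12.8% lower). The groups did not overlap for 8 of the 10 members, 6 higher and 2 lower, beside 77.4% of all genes (39.2% higher, 38.2% lower). The median log2 fold change of the 9 tested members was 0.87, and that of all genes tested was 0.03. S100a8 passed the expression filter through its NC libraries, so a count over tested members is no support for a fall.

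**Figure D2:**
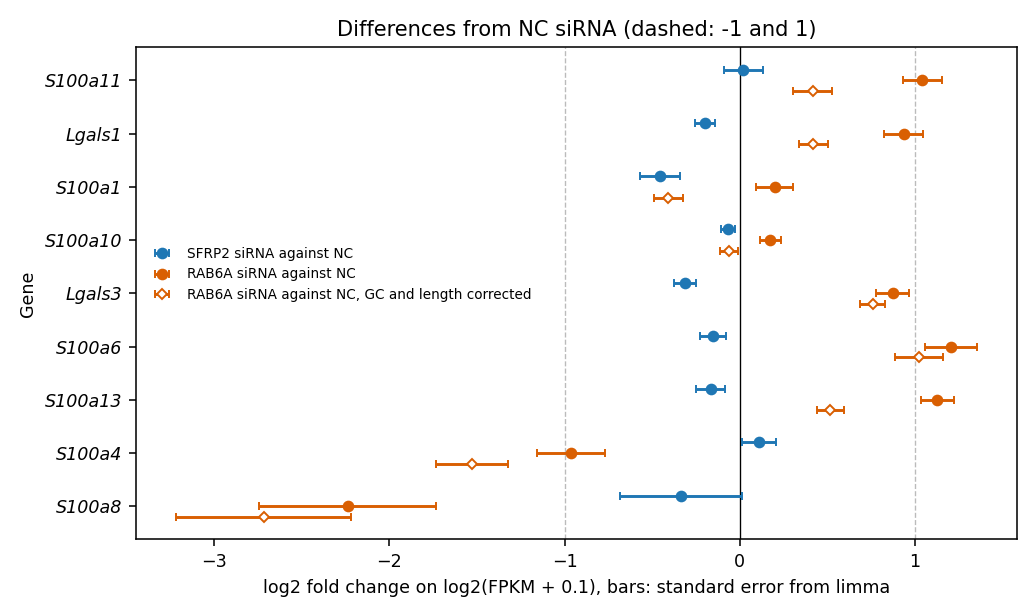
Log2 fold changes against NC siRNA for the 9 tested members, with bars of 1 standard error from limma (3 libraries a group) and dashed lines at -1 and 1. Filled orange points show RAB6A siRNA, open diamonds the same comparison after a correction for GC content and length, and blue points the libraries labelled SFRP2 siRNA. S100a11, S100a13 and Lgals1 move from 1.04, 1.13 and 0.93 to 0.42, 0.51 and 0.42 with the correction, and S100a1 changes sign.

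The folds moved when transcript length and GC content were taken into account. The members have 511 to 1858 bases of annotated exon, against a median of 3711 in the genes tested, and FPKM summed to 399883 to 410877 in RAB6A siRNA libraries but to 361817 to 372307 in NC. Across 12535 genes the log2 fold change had a Spearman correlation of -0.21 with length and 0.08 with GC content, given as a description over genes of the same libraries. After splines in both properties were fitted to the deviations of each library and subtracted, 3 members were called, S100a4, S100a6 and S100a8. In that fit 3536 of the 12535 genes were called, beside 3829 of 12712 without the correction. The share of members called is thus near that of all genes.

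S100a11 showed the largest difference in FPKM among the members. It had 560.5, 669 and 695 FPKM in NC and 1339, 1183 and 1435 in RAB6A siRNA. Every RAB6A siRNA library was above every NC library, with a mean 2.06 times that of NC and a log2 fold change of 1.04 (SE 0.11, limma adjusted p = 9.7e-05). The value was 0.42 (adjusted p = 0.0104) with the GC and length correction and 0.62 with quantile normalization. The bases before its start are shown because S100a11 is the most abundant member and the one whose upstream stretch held the most motif matches among the 8 members with a stretch. In the RefSeq stretch of 250 bases upstream of the start (GRCm38.p6, plus strand, chr3:93520246-93520495), capitals mark an E-box, AP-1 sites and GC boxes:
S100a11: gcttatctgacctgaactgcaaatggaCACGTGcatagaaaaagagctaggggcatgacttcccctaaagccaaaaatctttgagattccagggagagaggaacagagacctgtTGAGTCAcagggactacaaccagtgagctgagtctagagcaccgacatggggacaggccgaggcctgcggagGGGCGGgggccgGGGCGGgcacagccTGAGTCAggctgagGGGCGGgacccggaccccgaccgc
The AP-1 site was searched as TGANTCA, the GC box as GGGCGG, the E-box as CACGTG, the TATA box as TATAAA and a C/EBP-like site as TTGCNNAA, on both strands. S100a11 held 2 AP-1 sites (6.75% of 32851 mouse upstream stretches hold at least 1), 3 GC boxes (32.7%) and 1 E-box (6.02%). A match is a description of letters and not a bound site.

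S100a6 and S100a4 are close neighbours on chromosome 3 that moved in opposite directions. S100a6, known as calcyclin and induced in proliferating cells, had 73.2, 64.2 and 71.8 FPKM in NC and 176, 188 and 125 in RAB6A siRNA. The third RAB6A siRNA library was the lowest of its group but still above all NC libraries, and the log2 fold change was 1.20 (SE 0.15, limma adjusted p = 2.0e-04), with 1.02 after the GC and length correction. S100a4 had 8.40, 7.01 and 7.85 FPKM in NC and 2.78, 4.48 and 4.81 in RAB6A siRNA. All of these values were below NC, and the log2 fold change of -0.96 (SE 0.20, limma adjusted p = 0.00279) fell short of the fold rule, while the corrected value of -1.53 passed it. The ratio of S100a6 to S100a4 within a library ranged from 8.72 to 9.15 in NC and from 26.0 to 63.1 in RAB6A siRNA. The S100a4 exons share 302 of their 584 bases with Gm42674 on the same strand, a gene not in the table, so its reads are uncertain.

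S100a8, the calprotectin subunit that is abundant in neutrophils and inducible in macrophages, was low everywhere. It had 0.970, 1.04 and 0.678 FPKM in NC, 0.497, 1.22 and 0.498 in the libraries labelled SFRP2 siRNA, and 0, 0.229 and 0.176 in RAB6A siRNA. The RAB6A siRNA libraries were below all others, while the remaining groups overlapped. These values rest on 82 reads in NC, 59 in the libraries labelled SFRP2 siRNA and 10 in RAB6A siRNA. Counted as read pairs over a group, 5 in RAB6A siRNA against 41 in NC gave a ratio of 0.150 at equal depth (95% exact interval 0.0462 to 0.379, for counting error only). The log2 fold change was -2.24 (SE 0.50, limma adjusted p = 0.00472), and it ranged from -0.74 with a pseudocount of 1 to -3.55 with 0.01. S100a9 had 2 reads in each of 2 libraries labelled SFRP2 siRNA and 0 elsewhere. It was not tested, and 3 reads in 1 library would be 0.122 to 0.175 FPKM in the NC and RAB6A siRNA libraries. Low counts came mostly as pairs of reads, so a count of 0 allows a higher level than that. The sums of the neutrophil markers, given above, were under 0.5 FPKM in every library.

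S100a4 and S100a8 are shown by their upstream stretches. They were the only members among the 8 with a RefSeq stretch that held the TATA box letters (S100a10 and Lgals1 were not matched). A link between these letters and the lower values of the 2 genes in RAB6A siRNA was not tested. Both lie on the plus strand of GRCm38.p6, S100a4 at chr3:90603520-90603769 and S100a8 at chr3:90668821-90669070, and the capitals mark TATAAA:
S100a4: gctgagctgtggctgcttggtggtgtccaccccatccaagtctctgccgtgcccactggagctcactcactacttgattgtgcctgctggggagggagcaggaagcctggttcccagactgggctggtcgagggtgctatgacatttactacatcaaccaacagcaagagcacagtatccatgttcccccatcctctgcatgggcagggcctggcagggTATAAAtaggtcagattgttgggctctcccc
S100a8: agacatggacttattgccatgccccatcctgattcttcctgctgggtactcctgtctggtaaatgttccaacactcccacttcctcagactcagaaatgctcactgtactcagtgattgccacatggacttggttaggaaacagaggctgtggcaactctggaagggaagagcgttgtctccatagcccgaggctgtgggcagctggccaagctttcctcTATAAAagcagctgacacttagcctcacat
The first base of the match lies at -31 in S100a4 and -30 in S100a8, counted back from the start, and 12.4% of all upstream stretches hold the letters on either strand. S100a9 held 1 GC box and 1 C/EBP-like site, Lgals3 1 GC box on the opposite strand, and S100a1, S100a6 and S100a13 none of the motifs searched.

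S100a13, which helps export Fgf1 without a signal peptide, and S100a1 are annotated head to head, 42 bases apart on opposite strands. S100a13 had 24.9, 29.6 and 27.3 FPKM in NC and 65.9, 59.6 and 53.6 in RAB6A siRNA. The groups were far apart, with a log2 fold change of 1.13 (SE 0.09, limma adjusted p = 2.8e-05) and of 0.51 (adjusted p = 5.5e-04) with the GC and length correction. S100a1 had 158, 168 and 141 FPKM in RAB6A siRNA, which overlapped NC. Its log2 fold change was 0.20 (SE 0.10, limma adjusted p = 0.119), and the correction turned it to -0.41 (adjusted p = 0.00314), so its direction depends on that choice. S100a13 was 0.202 ± 0.0151 of S100a1 in NC, 0.246 ± 0.0173 in the libraries labelled SFRP2 siRNA and 0.385 ± 0.0319 in RAB6A siRNA. The counting is not stated to use strand, so reads where these genes meet cannot be told apart.

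S100a10 moved least among the members with an adjusted p under 0.05. It had 123, 119 and 122 FPKM in NC and 140, 144 and 128 in RAB6A siRNA, groups that did not overlap. The log2 fold change of 0.17 (SE 0.06, limma adjusted p = 0.0339) was no longer past the adjusted p threshold under 12 of 18 alternatives, among them quantile normalization (0.06, adjusted p = 0.318), and turned to -0.06 with the GC and length correction. Anxa2, which encodes the partner that S100a10 binds at the membrane, rose from 63.7 ± 3.16 to 122 ± 10.3 FPKM (log2 fold change 0.93, SE 0.08, limma adjusted p = 2.5e-05). The S100a10 to Anxa2 ratio was thus 1.91 ± 0.0714 in NC, 2.12 ± 0.0673 in the libraries labelled SFRP2 siRNA and 1.13 ± 0.0291 in RAB6A siRNA.

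Both galectins rose in RAB6A siRNA. Lgals1 had 323, 342 and 359 FPKM in NC and 715, 706 and 550.1 in RAB6A siRNA. The third library was the lowest of its group and still well above NC, and the log2 fold change was 0.93 (SE 0.11, limma adjusted p = 1.7e-04), with 0.42 after the GC and length correction and 0.36 with quantile normalization. Lgals3 had 209, 223 and 174 FPKM in RAB6A siRNA. These values were likewise above NC in every library, with a log2 fold change of 0.87 (SE 0.09, limma adjusted p = 1.0e-04) and 0.76 with the correction. The Lgals3 to Lgals1 ratio stayed between 0.282 and 0.336 over all 9 libraries in the deposited FPKM. With quantile normalization Lgals3 rose by more than Lgals1 (0.74 against 0.36), as it did with the correction. The steady ratio thus depends on the processing. Summed over both genes, galectin FPKM was 451 ± 20.3 in NC, 386 ± 17.7 in the libraries labelled SFRP2 siRNA and 859 ± 117 in RAB6A siRNA.

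The S100 sum was 1004 ± 85.5 FPKM in NC, 962 ± 66.7 in the libraries labelled SFRP2 siRNA and 1839 ± 78.9 in RAB6A siRNA, with S100a11 at 71.7% ± 4.18 of it in the last group. In RAB6A siRNA the order of the members changed in the middle, where Lgals3, S100a6, S100a1 and S100a10 followed each other with means of 202 to 137 FPKM and each overlapped the next. S100a11 and Lgals1 kept the first places. The libraries labelled SFRP2 siRNA placed S100a10 above S100a1, which overlapped Lgals3 below it.

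The third comparison set RAB6A siRNA against the libraries labelled SFRP2 siRNA and shares the RAB6A siRNA libraries with the one before. All 8 members tested had an adjusted p under 0.05, 7 higher and 1 lower, beside 73.4% of 12764 genes (37.6% higher, 35.8% lower). By the fold rule 6 were called, 5 higher and 1 lower, beside 31.1% (17.8% higher, 13.3% lower). S100a1 had a log2 fold change of 0.65 here (SE 0.11, limma adjusted p = 0.00108). Its values of 158, 168 and 141 FPKM were all above the 104, 85.4 and 107 of the libraries labelled SFRP2 siRNA, and the difference was 0.00 after the GC and length correction. Lgals3 gave 1.18 (SE 0.11), Lgals1 1.13 (SE 0.11) and S100a4 -1.07 (SE 0.20), all with adjusted p under 0.05. With the correction 2 members were called, S100a6 at 1.11 and S100a4 at -1.62. Over the alternatives with all libraries kept, 2501 to 5269 of all genes were called, so this count is no result about the members. S100a8 was under the expression filter in this pair of groups.

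Partner genes moved in both directions. Of 13 receptors and binding partners of S100 proteins 11 were tested in RAB6A siRNA against NC. At an adjusted p under 0.05, 4 were higher and 4 lower, which is near the 37.6% and 36.5% of all genes tested. Their median log2 fold change was 0.07, beside 0.03 for all genes. With the GC and length correction 6 were higher and 3 lower. Anxa6, a membrane-binding annexin, rose from 6.68 ± 0.521 to 26.4 ± 1.90 FPKM (log2 fold change 1.97, SE 0.08, limma adjusted p = 1.9e-06). Cacybp, which encodes the calcyclin-binding protein that S100a6 contacts, fell from 65.6 ± 5.52 to 29.96 ± 3.70 FPKM (-1.13, SE 0.10, adjusted p = 3.9e-05). Bsg, a receptor for S100a9 and the most abundant gene of this list, rose with a log2 fold change of 0.52 (SE 0.07) that was 0.11 (adjusted p = 0.184) with quantile normalization, and Tlr4 and its partner Ly96 fell by 0.50 and 0.88 on the log2 scale, the former with an adjusted p of 0.058 after the GC and length correction. Ager, the gene of RAGE, had 0.153 ± 0.0892 FPKM in NC and was not tested.

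Of 18 galectin ligands and glycan-branching enzymes 16 were tested, 4 higher and 8 lower (37.6% and 36.5% of all genes tested), with a median of -0.31. With the GC and length correction 6 were higher and 7 lower and the median was -0.03. Mgat2, a Golgi enzyme that builds the branched N-glycans galectins bind, fell from 26.7 ± 0.972 to 8.39 ± 0.487 FPKM (log2 fold change -1.66, SE 0.06, limma adjusted p = 1.5e-06). Tfrc, the transferrin receptor, fell from 67.3 ± 5.85 to 20.4 ± 1.85 FPKM (-1.72, SE 0.09, adjusted p = 3.8e-06). Lamp1, a heavily glycosylated lysosomal protein and the gene with the highest mean of this list over the 9 libraries, fell by 0.59 on the log2 scale (SE 0.07). The related Lamp2 rose by 0.29 (SE 0.06).

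Other galectins were tested in 4 of 9 cases, 1 higher and 3 lower (37.6% and 36.5% of all genes tested). With the GC and length correction 2 were higher and 0 lower. Lgals9, the most abundant of them, went from 84.9 ± 4.15 to 71.0 ± 8.10 FPKM (log2 fold change -0.26, SE 0.09, limma adjusted p = 0.0275, and 0.101 with the GC and length correction). Lgals8 turned from -0.16 to 0.16 with that correction. Lgals2 had 0.198 ± 0.127 FPKM in NC and 0.971 ± 0.200 in RAB6A siRNA, a log2 fold change of 1.92 (SE 0.39) that was 1.19 with quantile normalization. It passed the expression filter only through the RAB6A siRNA libraries, where it was high, so its count is no support for a rise of the list. Among 9 other S100 genes 7 were in the table, and S100g was the only one tested and did not pass, at 0.940 ± 1.10 in NC and 1.14 ± 0.617 FPKM in RAB6A siRNA. Of 7 transcription factors that act on S100a8 and S100a9, 4 were lower in RAB6A siRNA and 0 higher, beside 36.5% and 37.6% of all genes tested. With the GC and length correction 5 were lower, among them Cebpe (-0.31, adjusted p = 0.00524, beside 0.18 and adjusted p = 0.158 without the correction), and Hif1a was higher (0.32, adjusted p = 3.0e-04), as it was with quantile normalization (0.24, adjusted p = 0.00838). Cebpd fell from 32.2 ± 0.803 to 8.03 ± 0.244 FPKM (-1.99, SE 0.05, adjusted p = 6.8e-07), and Cebpa and Spi1, the myeloid lineage factors, fell by 1.02 and 1.05 on the log2 scale, while Cebpb had 0.24 (SE 0.18). Spi1 also stands in the list of macrophage markers. In the libraries labelled SFRP2 siRNA 0 genes of these lists passed, as for all genes.

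**Figure D3:**
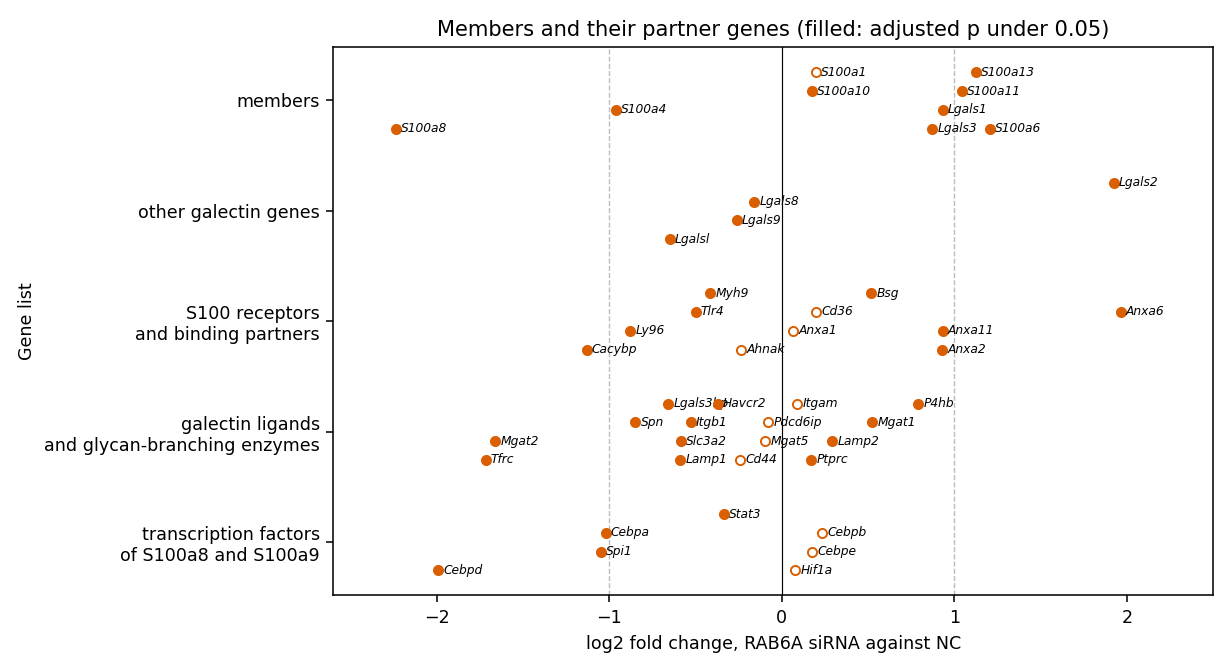
Log2 fold changes of the tested genes of each list in RAB6A siRNA against NC, 1 point a gene, filled where the limma adjusted p was under 0.05, with dashed lines at -1 and 1. Members lie mostly to the right of 0 but reach from -2.24 to 1.20. Galectin ligands reach from -1.72 to 0.79 and the transcription factors from -1.99 to 0.24, all without the GC and length correction.

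On chromosome 3 (GRCm38) the 8 S100 members stand in 2 blocks, from S100a1 at chr3:90511034-90514392 to S100a9 at chr3:90692632-90695721 (184.7 kb) and, 2.82 Mb further, S100a11 at chr3:93520488-93526287 with S100a10 at chr3:93555080-93564643. Rising and falling members alternated within the first block, where S100a13 and S100a6 rose and S100a4 and S100a8 fell. The S100 genes between them, among them S100a14, S100a16, S100a3 and S100a5, had means under 0.2 FPKM in every group and were not tested. Of 13 other genes in or beside this block 4 were tested, 1 higher and 3 lower (37.6% and 36.5% of all genes tested). Snapin was higher and Ints3, Ilf2 and Chtop lower, with log2 fold changes of 0.56, -0.45, -0.37 and -0.87. Ilf2 was not past the adjusted p threshold with the GC and length correction (-0.11, adjusted p = 0.0823). Lgals3 (chr14:47367751-47386160) rose between Mapk1ip1l and Dlgap5, with log2 fold changes of -0.32 and -0.81. With the correction Mapk1ip1l was at -0.03 (adjusted p = 0.59). Around Lgals1 (chr15:78926725-78930465) 6 other genes were tested, 4 higher and 0 lower (37.6% and 36.5% of all genes tested). Of the 4, Mir6955 passed the expression filter only through the RAB6A siRNA libraries, where it was high. The others were Sh3bp1, Gga1 and Pdxp, with log2 fold changes of 1.72, 0.39 and 0.71 (limma adjusted p = 6.0e-06, 0.00145 and 0.0231). Pdxp is adjacent to Lgals1 on one side. On the other side the adjacent Nol12 stood at -0.10 (SE 0.06, adjusted p = 0.154), and Triobp beyond it at -0.20 (adjusted p = 0.0675).

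**Figure D4:**
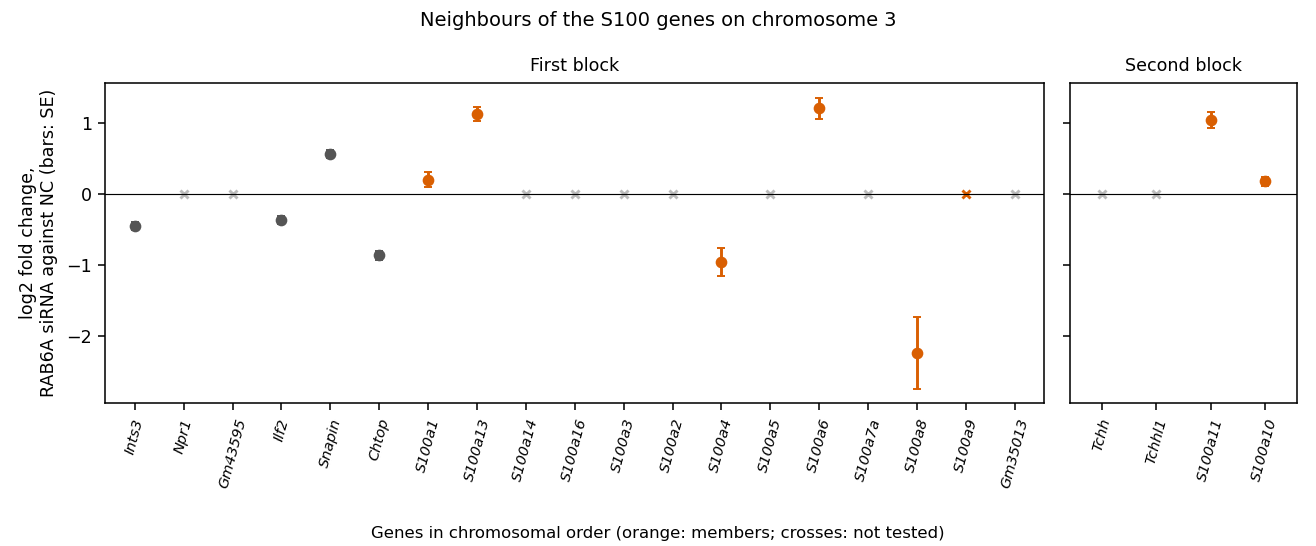
Log2 fold change in RAB6A siRNA against NC for genes in chromosomal order in both S100 blocks, with bars of 1 standard error, members in orange, other genes in grey and crosses at 0 for genes not tested. In the first block S100a13, S100a4, S100a6 and S100a8 take alternating signs, from 1.20 for S100a6 to -2.24 for S100a8.

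The genes most like 8 of the members over the 9 libraries were named by the highest Pearson correlation of log2(FPKM + 0.1) among 12549 genes. They were Ndufb10 for S100a1 (r = 0.977), Ttc37 for S100a4 (0.990), Parp3 for S100a6 (0.997) and Chchd2 for S100a10 (0.994). S100a11 was most like Per1 (0.993), S100a13 most like Gm44292 (0.997), Lgals1 most like Rps16 (0.998) and Lgals3 most like Gpx4-ps2 (0.998). The 9 points come from 3 groups and share their libraries, so these values are a description, and none of these 8 members had another member as its nearest gene.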

How the data were processed

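Total RNA of 9 RAW264.7 libraries was sequenced in pairs. Per the labels the authors used HISAT2, featureCounts and Subread, whose versions, genome build and strand setting are not given in the sources used here. The deposited values are FPKM per gene and library, not pooled. Groups came from the treatment label. Symbols were taken from GENCODE M21 (27533 of 28137 identifiers named). Whole reads were recovered from the FPKM steps and exon lengths in 98.4% of named genes, within 0.03 reads.

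Genes with a mean of at least 0.5 FPKM over the 6 libraries compared were tested on log2(FPKM + 0.1) with limma 3.58.1 (R 4.3.3, trend, Benjamini-Hochberg). Calls needed an adjusted p under 0.05 and a log2 fold change over 1 in size. Depth was 32758729 to 47149258 reads, and intervals cover counting error only. The code was tested on simulated data. Alternatives were other pseudocounts, filters, scalings, a GC content and length spline with 5 degrees of freedom, voom, a replicate block and each library left out.

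The members and gene lists were chosen with earlier results of these data known. Named genes were the members, the siRNA targets, list genes called in RAB6A siRNA against NC, the highest of each list, the gene most like each member and chromosomal neighbours. The gene most like S100a8 is not reported here. Tlr4, Ly96, Ager, Anxa2, Lamp2, Lgals8, Cebpb, Cebpe, Hif1a, Lyz2, Cd68, Elane and Mmp8 were added as examples after their values were seen. Upstream sequences came from RefSeq (GRCm38.p6), which matched 8 of 10 members.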

Additional observations from a re-analysis of the deposited data

How the results depend on the processing

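Over the alternatives, 144 of 158 recomputed member folds kept direction and side of the adjusted p threshold in RAB6A siRNA against NC. The counts were 139 of 144 in RAB6A siRNA against SFRP2 siRNA and 158 of 161 in SFRP2 siRNA against NC. These counts leave out the fold rule, so calls changed more. With the GC content and length correction, S100a11 (0.42) and S100a13 (0.51) lost their call against NC in RAB6A siRNA and S100a4 (-1.53) gained one. Against NC in RAB6A siRNA, S100a1 turned to -0.41 and S100a10 to -0.060 with the GC content and length correction, with or without the replicate block, and S100a10 to -0.042 against SFRP2 siRNA. There the correction, likewise with or without the block, left 2 members called in place of 6, and S100a1 at 0.00. Genes called in that comparison ranged from 2501 to 5269 over the alternatives with all libraries kept. The cause was not tested.

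A pseudocount of 1 gave 2389 genes called in place of 3829 against NC and 2501 in place of 3972 against SFRP2 siRNA, since it shrinks folds of low genes. In SFRP2 siRNA against NC, voom on recovered reads gave 42 genes with an adjusted p under 0.05 and 2 called, none of them a member, where limma gave 0. With 1 library left out these counts were 0 to 1 and 0 to 1, the 1 coming without NC replicate 1. Members called in RAB6A siRNA against NC were 2 to 5 with 1 library left out, beside 3583 to 3909 of all genes. The 2, S100a6 and S100a13, came without NC replicate 1, where S100a11 was at 0.95 and S100a8 under the filter, as it was without any 1 NC library.

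Same-numbered replicates did not deviate together over all genes (mean r = -0.01, -0.08 to 0.05). With 3 libraries a group this gives no sign of pairing by number but cannot exclude it. With the replicate block 3852 genes were called in RAB6A siRNA against NC, 4 members among them, and 7 rather than 8 members had an adjusted p under 0.05 (S100a10 at 0.0748). Partner genes were recomputed only in RAB6A siRNA against NC with median-of-ratios scaling, quantile normalization and the GC and length correction, and Anxa6, Cacybp, Mgat2, Tfrc, Cebpd, Cebpa and Spi1 stayed called under all of these. Depth limits S100a8 and S100a9.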
